A study of Saccharomyces cerevisiae with 6 samples.

Results

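The genes described here encode ribosome biogenesis factors, the nucleolar proteins and assembly factors that turn precursor ribosomal RNA into the ribosomal subunits of the budding yeast Saccharomyces cerevisiae. The set is a fixed list of 57 gene symbols, taken on the probe set annotated to each symbol (the brightest, had there been several), and all 57 were found among 5449 genes on the array. Each had a single probe set. All 57 lay above background and were tested, of 5402 genes tested in all. By role, 7 encode core proteins of the small nucleolar ribonucleoproteins (snoRNPs), 15 act on the small subunit, 3 act on both subunits and 32 act on the large subunit.

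Ribosome assembly begins in the nucleolus, where snoRNPs guide chemical modification and cutting of the ribosomal RNA precursor and large complexes fold and cleave it around the first ribosomal proteins. The particles that become the small and large subunits then separate, lose most of their assembly factors and leave through the nuclear pores. In budding yeast the genes of this pathway are known as a large co-regulated group whose transcripts are abundant in fast growth and drop together when nutrients run out or cells are stressed.

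The study set 3 cultures of a strain deleted for RPH1 (rph1 deletion) against 3 cultures of wild type, both in the W303 background and both in rich medium (YPD) at 30 °C in log phase. The product of RPH1 is a DNA-binding histone demethylase of the JmjC family, with zinc fingers, and the comparison asks which genes it regulates in growing cells. Beyond the deletion the labels give no allele that separates the strains, and the deletion's marker, the mating type and the number of clones behind the cultures were left unstated in the sources used here. Replicates carry the numbers 1 to 3 in each genotype, and the labels give replicate 1 of both genotypes another form of sample code than replicates 2 and 3.

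RPH1 checked the labels. Its signal was 4.52, 8.18 and 8.99 on deletion arrays 1, 2 and 3, against 305, 362 and 385 on the wild-type arrays (limma adjusted p = 0.00196). Background here was the 95th percentile of the Schizosaccharomyces pombe probe sets on the same array, 8.59, 12.7 and 8.98 on deletion arrays 1, 2 and 3. Only 1 of the 3 deletion values was above it. With the values below background raised to it, the drop was at least 35.2-fold. Values are MAS5 signals on a linear scale, scaled to the same trimmed mean on every array (500.2), and differences are on the log2 scale. With this scaling a change shared by all transcripts of a cell is not visible, and in RNA from a whole culture fewer cells with a transcript and less of it per cell cannot be told apart. The median signal of the tested genes was 599 to 628 over the arrays. Summed signals of 4 alpha-cell genes were 13732 to 17631 in the deletion and 13179 to 15510.4 in wild type, and those of 6 a-cell genes were 264 to 365 in the deletion and 316 to 392 in wild type, so both genotypes had the alpha-cell genes high.

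No ribosome biogenesis factor gene passed the test between the genotypes. Of the 57 genes, 0 had a limma adjusted p under 0.05, and 0 had an unadjusted p under 0.05. Over all genes tested 0.037% were called and 5.33% had an unadjusted p under 0.05. The differences, deletion minus wild type, ran from -0.17 for CBF5 to 0.087 for NOG1 and DRS1, with a median of -0.023, beside 0.0012 for all genes tested. The 95% interval of each of the 57 lay within a 1.5-fold change in either direction, as it did for 81.8% of the genes tested. For 25 members it lay within 1.2-fold, against 23.3% of the genes tested. Unadjusted p over the members ran from 0.245 to 0.994. The median SD of log2 signal within a genotype was 0.107 over the members and 0.138 over all genes tested. The 95% intervals are for single genes and were not widened for the number of genes.

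**Figure D1:**
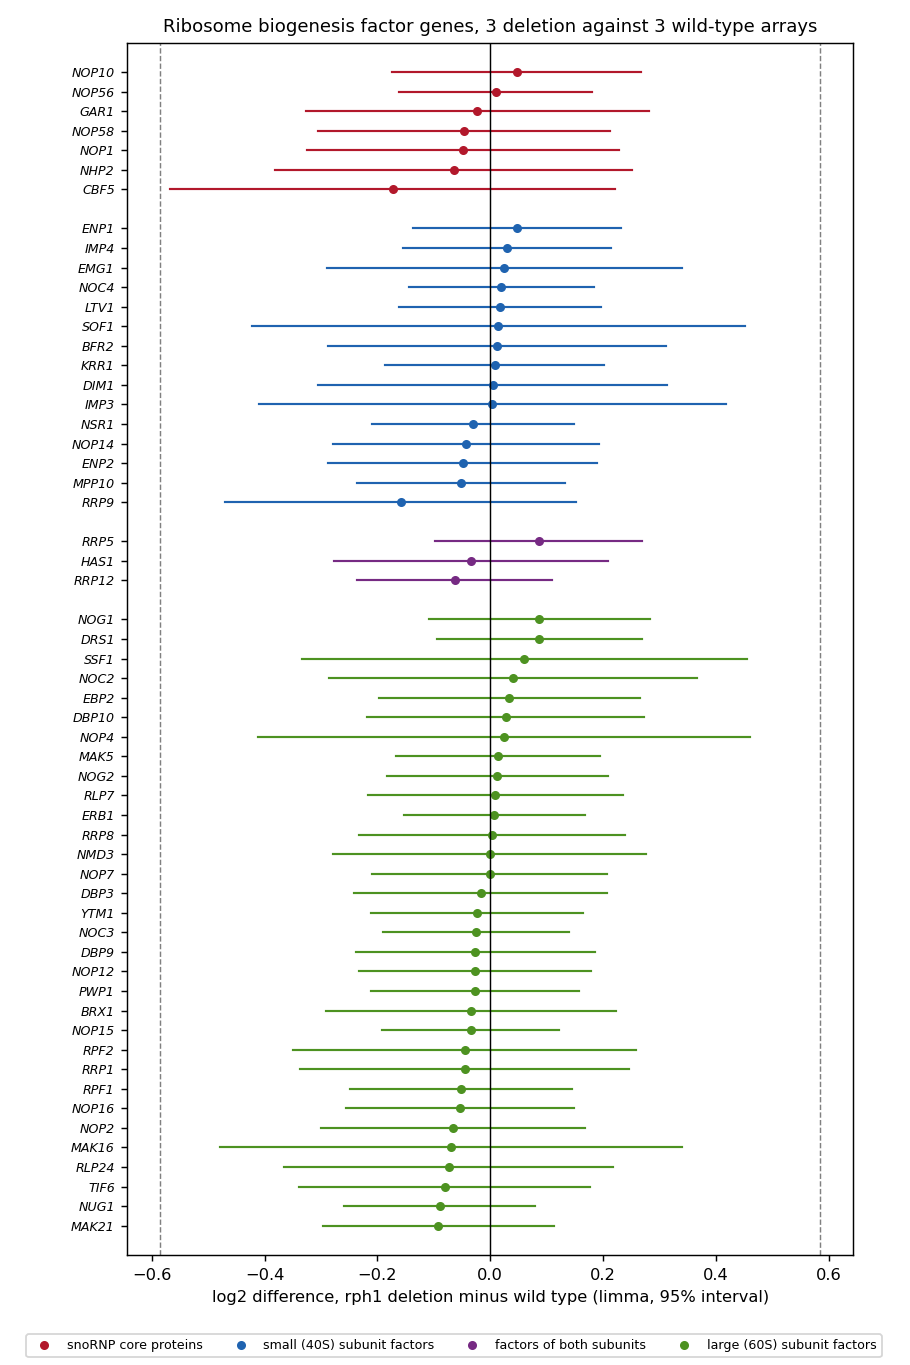
Each point is the log2 difference of 1 gene, rph1 deletion minus wild type (3 arrays each), on the horizontal axis, and each line is its limma 95% interval. Genes are grouped by the subunit they serve, and the dashed lines mark a 1.5-fold change, which no interval reaches.

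The sign of these small differences depended on the scaling. As deposited, 32 members were lower in the deletion and 25 were higher, and 49.6% of all genes tested were lower. After centring each array on its median 50 members were lower, as were 3413 of 5402 genes, and after quantile normalization 34 members and 2920 genes. Within same-numbered arrays the member median was 0.015 in replicate 1, -0.024 in replicate 2 and -0.014 in replicate 3. In 2 members, RRP12 and NUG1, every deletion array was below every wild-type array, and in 0 members every one was above. Over all genes tested the shares were 3.04% and 7.55%. With the replicate number as a block the members called stayed at 0, where 0.111% of all genes were called. With the form of sample code as a term it was also 0, where 0.629% of all genes were called.

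The snoRNP core proteins bind the guide RNAs of 2 families. Box C/D particles place methyl groups on ribose through NOP1, the yeast fibrillarin, held by the scaffold proteins NOP56 and NOP58. Signals of NOP1 were 5297, 4474 and 4742 on deletion arrays 1, 2 and 3 and 5632, 4943 and 4465 on wild-type arrays 1, 2 and 3, overlapping ranges with the highest value of each genotype on replicate 1. NOP58 read 3836, 3349 and 3493 in the deletion and 4173, 3487 and 3397 in wild type, again with replicate 1 highest in both. Their differences were -0.049 (SE 0.11) and -0.047 (SE 0.11), and that of NOP56 was 0.0096 (SE 0.071).

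Box H/ACA particles convert uridine to pseudouridine through the enzyme CBF5, with GAR1, NHP2 and NOP10 as partners. CBF5 read 2720.3, 2503 and 2721 in the deletion, against 3852, 2713 and 2543 in wild type, and its difference was -0.17 (SE 0.16, 95% interval -0.57 to 0.22). A single array, wild type 1, stood apart from the other 5, which overlapped. Without wild type 1 the CBF5 difference was 0.011. GAR1 read 5385, 4474 and 4268 in the deletion and 5403, 4408 and 4529.5 in wild type, and NHP2 read 5044, 4244 and 4321 in the deletion and 5578, 4491 and 4223 in wild type. The genotypes overlapped for both, at -0.023 (SE 0.13) and -0.065 (SE 0.13), and replicate 1 was again the highest of each genotype. NOP10, the smallest of these proteins, differed by 0.047 (SE 0.091).

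Among small subunit factors the genotype differences ran from -0.16 to 0.047, with 10 of 15 higher in the deletion and a median of 0.0075. RRP9, the protein particular to the U3 snoRNP that starts small subunit processing, had the lowest value and the smallest p of this group. Its signals were 773, 1047 and 1031 in the deletion, against 1045, 1052 and 1057 in wild type, a difference of -0.16 (SE 0.13, 95% interval -0.47 to 0.15). Deletion array 1 alone was low. Without that array the difference was -0.017. IMP3, which joins U3 with its partners IMP4 and MPP10, read 1866, 1343 and 1428 in the deletion and 1824, 1488 and 1309 in wild type, a difference of 0.0032 (SE 0.17). IMP4 differed by 0.030 (SE 0.077) and MPP10 by -0.052 (SE 0.076).

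SOF1, a WD-repeat protein of the small subunit processome, the large early particle built around U3, read 879, 1172 and 1223 in the deletion and 867, 1152 and 1224 in wild type. Both genotypes gave nearly the same 3 values, low on replicate 1, and the difference was 0.014 (SE 0.18). BFR2, of the same particle, read 992, 1129 and 1126 in the deletion and 908, 1155 and 1174 in wild type, also with replicate 1 lowest in each genotype, at 0.012 (SE 0.12). NSR1, the yeast counterpart of nucleolin, read 3897, 3950.4 and 4043 in the deletion and 4320.1, 3918 and 3923 in wild type, at -0.031 (SE 0.074). EMG1, a methyltransferase that acts on small subunit ribosomal RNA, read 2717, 2109 and 2134 in the deletion and 2530.2, 2107 and 2177 in wild type, at 0.025 (SE 0.13). For EMG1 replicate 1 was the highest in each genotype. The other members of the group, NOP14, NOC4, KRR1, ENP1, ENP2, the late export factor LTV1 and the dimethyladenosine transferase DIM1, lay between -0.049 and 0.047.

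Factors of both subunits gave differences of either sign. RRP5, a large RNA-binding protein needed for both branches of processing, read 2111, 2099 and 2318 in the deletion and 1977, 2064 and 2107 in wild type, a difference of 0.086 (SE 0.076). RRP12, which helps both pre-subunits leave the nucleus, read 2168, 1998 and 2194 in the deletion, against 2202, 2234 and 2204 in wild type. Here every deletion array was lower, with a difference of -0.063 (SE 0.072, 95% interval -0.24 to 0.11), and the exact permutation test gave p = 0.1 (2-sided, n = 3 each), the smallest value 3 arrays against 3 allow. The helicase HAS1 read 2166, 1849 and 1809 in the deletion and 2132, 1879.9 and 1941 in wild type, with overlap between the genotypes, at -0.034 (SE 0.10).

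**Figure D2:**
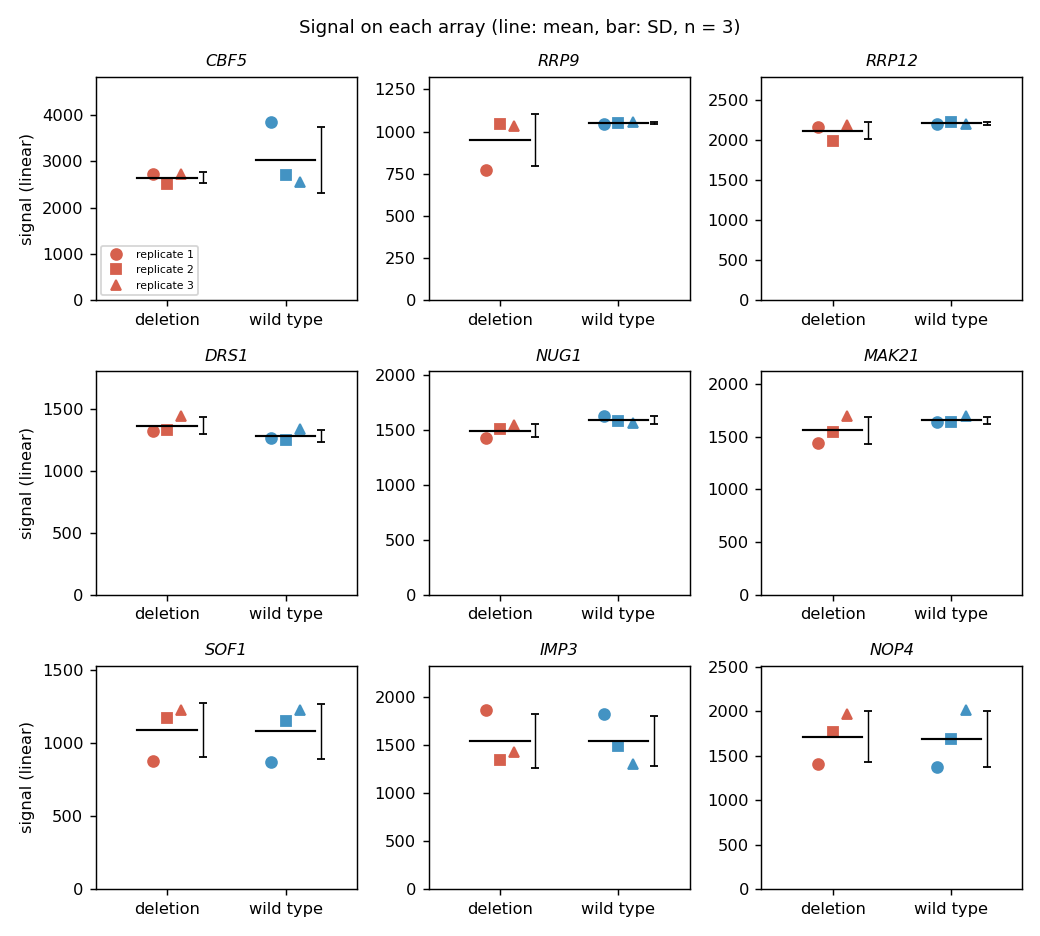
Signal on a linear axis starting at 0, for 9 named members, with the deletion left and wild type right. Symbols mark the replicate number, lines the mean of 3 arrays and bars the SD. In CBF5 and RRP9 a single array (wild type 1 and deletion 1) stands apart, and in SOF1, IMP3 and NOP4 the replicate 1 arrays of both genotypes do.

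The large subunit members numbered 32, with 20 lower and 12 higher in the deletion and a median of -0.024. Its 5 RNA helicases of the DEAD-box type unwind pairings in the precursor. DRS1 had the smallest p among them, at 1323, 1327 and 1443 in the deletion and 1268, 1247 and 1337 in wild type, a difference of 0.087 (SE 0.075, 95% interval -0.094 to 0.27). The ranges overlapped through wild type 3. DBP10 read 1379.8, 1171 and 1271 in the deletion and 1383, 1182 and 1187 in wild type, at 0.027 (SE 0.10), and DBP3 read 2687, 2561 and 2395 in the deletion and 2689, 2722 and 2334 in wild type, at -0.017 (SE 0.093). DBP9 and MAK5 differed by -0.026 (SE 0.088) and 0.014 (SE 0.075). Both enzymes that methylate bases of the large subunit RNA overlapped between genotypes. NOP2 read 3164, 2865 and 2855 in the deletion and 3413, 3081 and 2825 in wild type, at -0.067 (SE 0.10), and RRP8 differed by 0.0028 (SE 0.10).

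Of the 3 GTPases that act as switches on the pre-60S particle, NUG1 had the smallest p of all 57 members. It read 1426, 1504 and 1543 on deletion arrays 1, 2 and 3, against 1623, 1578 and 1558 on the wild-type arrays. Every deletion array was lower, and the difference was -0.090 (SE 0.070, 95% interval -0.26 to 0.079). The unadjusted p was 0.245, the limma adjusted p = 1.000, and the exact permutation test gave p = 0.1 (2-sided, n = 3 each), the smallest possible. NOG2 read 2577, 2294 and 2368 in the deletion and 2514, 2374 and 2286 in wild type, at 0.012 (SE 0.081), and NOG1 differed by 0.087 (SE 0.081), the highest value of the set.

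The Noc proteins escort the particle from nucleolus to nucleoplasm. MAK21 (also called Noc1) read 1437, 1549 and 1696 in the deletion and 1644, 1638 and 1698 in wild type, a difference of -0.092 (SE 0.085), with overlap through deletion 3. NOC2, which pairs with MAK21 and then with NOC3, read 1144, 1406 and 1411 in the deletion and 1113, 1283 and 1461 in wild type, at 0.041 (SE 0.14), with replicate 1 lowest in both genotypes. NOC3 differed by -0.025 (SE 0.068). The Nop7-Erb1-Ytm1 complex, required for processing within the large subunit precursor, comes next. ERB1 read 1874, 1902 and 1941 in the deletion and 1843, 1924 and 1922 in wild type, at 0.0069 (SE 0.066). YTM1 read 1505, 1350.2 and 1361 in the deletion and 1479, 1412 and 1391 in wild type, at -0.024 (SE 0.078), and NOP7 differed by -0.00092. The 95% intervals of all 3 genes of this complex lay within a 1.2-fold change.

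The other 16 large subunit factors ran from -0.081 to 0.061, with 12 lower in the deletion. TIF6, which keeps the new large subunit from joining the small one too early, read 3026, 2618 and 2756 in the deletion and 3285, 2975 and 2644 in wild type, the smallest p of this group at -0.081 (SE 0.11). BRX1, a Brix-domain assembly factor, read 4074, 3402 and 3449.8 in the deletion and 4029.8, 3732 and 3412 in wild type, at -0.034 (SE 0.11). NOP4, an RNA-binding factor, read 1408, 1764 and 1976 in the deletion and 1375, 1685 and 2014 in wild type. Its 3 values were alike between the genotypes and lowest on replicate 1, at 0.024 (SE 0.18). NMD3, the export adapter of the large subunit, read 2229.7, 1782 and 1896 in the deletion and 2170.2, 1839 and 1891 in wild type, and differed by -0.00090. RRP1 and RPF2, the second of which helps to bring in the 5S particle, differed by -0.045 (SE 0.12) and -0.045 (SE 0.13). RLP24 and RLP7, which resemble ribosomal proteins and sit in the immature particle, differed by -0.074 (SE 0.12) and 0.0087 (SE 0.094). SSF1 and RPF1, relatives of BRX1 in the Brix family, differed by 0.061 (SE 0.16) and -0.052 (SE 0.082). EBP2, a partner of BRX1, differed by 0.034 (SE 0.10), MAK16 by -0.069 (SE 0.17), the WD-repeat factor PWP1 by -0.027 (SE 0.077), and the nucleolar proteins NOP12, NOP15 and NOP16 by -0.027 (SE 0.085), -0.035 (SE 0.065) and -0.054 (SE 0.084).

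With all 6 arrays in the fit, the members were called between sets of replicates about as often as other genes. The question was how far replicates 2 and 3 differ from replicate 1, with genotype as a term in the fit and 4 arrays against 2. Of the 57 members, 20 (35.1%) were called by limma, close to the 36.9% of all genes tested. Of these, 6 were higher in replicates 2 and 3, where 18.5% of all genes were, and 14 were lower, where 18.4% were. The member differences ran from -0.41 to 0.45 with a median of -0.030, against -0.0037 for all genes tested. The 4 later-numbered arrays did not overlap the 2 replicate 1 arrays in 8 members that were higher and 22 that were lower, where 25.1% and 28.1% of all genes did. The count of calls depended on single arrays, in the members as over all genes. Members called were 5 (8.77%) without deletion 2 and 8 (14.0%) without deletion 3, where 19.8% and 23.3% of all genes were called. They were 16 (28.1%) without wild type 2 and 17 (29.8%) without wild type 3, where 35.8% and 34.0% of all genes were called. In each of these fits the member share was below that of all genes, a difference that was not tested.

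**Figure D3:**
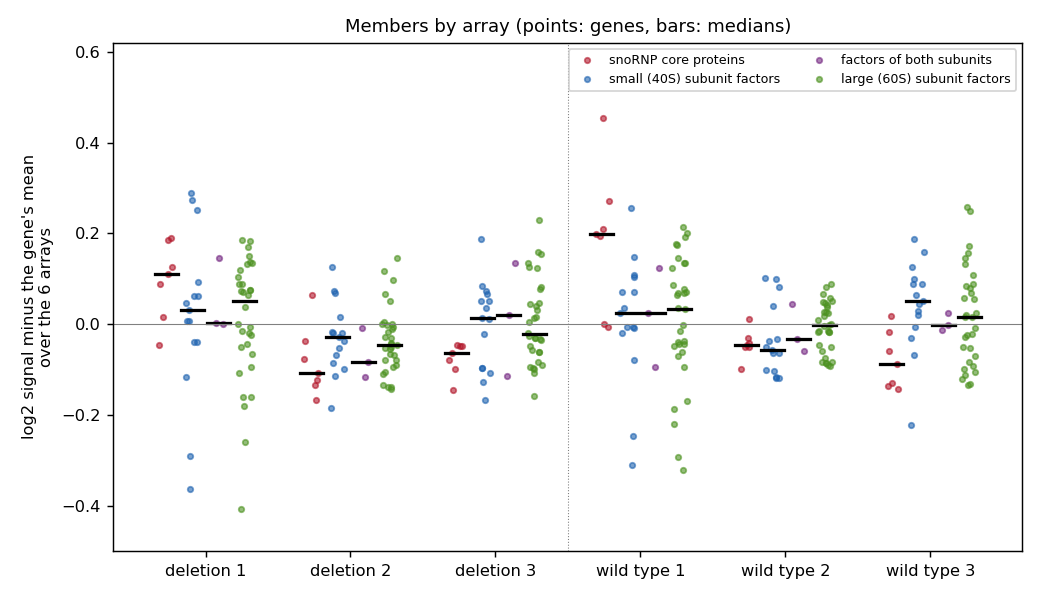
The log2 signal of each of the 57 members minus its own mean over the 6 arrays, by array, with the deletion arrays left. Points are genes coloured by subunit and bars are medians. The snoRNP genes have medians of 0.11 on deletion 1 and 0.20 on wild type 1, and medians below 0 on the other 4 arrays.

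The 6 genes called higher were SOF1, NOP4, MAK16, SSF1, NOC2 and BFR2. SOF1 had the smallest p. It read 1172 and 1223 on deletion arrays 2 and 3 and 1152 and 1224 on wild-type arrays 2 and 3, against 879 on deletion array 1 and 867 on wild-type array 1, and the sets did not overlap. Its difference was 0.45 (SE 0.057), with a limma adjusted p = 0.00460. NOP4 read 1764 and 1976 on deletion arrays 2 and 3 and 1685 and 2014 on wild-type arrays 2 and 3, against 1408 on deletion array 1 and 1375 on wild-type array 1. Its difference was 0.41 (SE 0.091), with a limma adjusted p = 0.0184. BFR2 and NOC2 differed by 0.27 (SE 0.061) and 0.30 (SE 0.068), with limma adjusted p = 0.0198 and 0.0204. MAK16 and SSF1, early large subunit factors named because they complete this count, differed by 0.38 (SE 0.091) and 0.36 (SE 0.090).

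The 14 genes called lower in replicates 2 and 3 included 4 of the 7 snoRNP genes, GAR1, NHP2, NOP1 and NOP58. Of all genes tested 18.4% were called lower. All 7 snoRNP genes were lower, with a median difference of -0.23, where 50.6% of all genes tested were lower. After quantile normalization all 7 were still lower but 2 were called (median -0.19). With that scaling 2812 of all 5402 genes were lower and 1005 were called lower. GAR1 differed by -0.29 (SE 0.054), NHP2 by -0.30 (SE 0.060) and NOP1 by -0.23 (SE 0.066), with limma adjusted p = 0.0115, 0.0145 and 0.0393. IMP3 read 1343 and 1428 on deletion arrays 2 and 3 and 1488 and 1309 on wild-type arrays 2 and 3, against 1866 on deletion array 1 and 1824 on wild-type array 1, with no overlap. The difference of IMP3 was -0.41 (SE 0.072), with a limma adjusted p = 0.0102. EMG1 differed by -0.30 (SE 0.056), RPF2 by -0.28 (SE 0.061), RRP1 by -0.27 (SE 0.055) and NMD3 by -0.25 (SE 0.057), with limma adjusted p from 0.0118 to 0.0204. NOP58 differed by -0.22 (SE 0.058), HAS1 by -0.20 (SE 0.055), DBP10 by -0.20 (SE 0.059), BRX1 by -0.21 (SE 0.061), RLP7 by -0.18 (SE 0.051) and RLP24 by -0.26 (SE 0.061). CBF5 and RRP9, where 1 array stood apart, were not called, at -0.31 (SE 0.12) and 0.22 (SE 0.10).

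Gene length and signal moved with this difference. Across genes, Spearman's rho between gene length in the RefSeq table and the difference was 0.328 over the 57 members and 0.259 over all genes tested. Against mean log2 signal rho was -0.526 over the members and -0.114 over all genes. Genes are not independent replicates here, since all points come from the same 6 arrays and their scaling. The 20 members of at most 1200 bp had a median of -0.21, against -0.076 for other genes of that length. For the 21 members above 1200 and up to 1800 bp the values were -0.011 and 0.0055, and for the 16 longer members, a small class, -0.025 and 0.10. In the shortest class 10 of 20 members were called lower and 1 higher, and of 2583 other genes 662 (25.6%) were called lower and 299 (11.6%) higher. Among those other genes, 66 of 125 cytosolic ribosomal protein genes (52.8%) were called lower and 2 higher, with a median of -0.21. In the middle class 3 members (14.3%) were called lower and 3 higher, against 15.8% and 19.4% of other genes. In the longest class 1 member (6.25%) was called lower and 2 (12.5%) higher, against 7.79% and 30.0% of other genes. These differences between members and other genes were not tested.

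**Figure D4:**
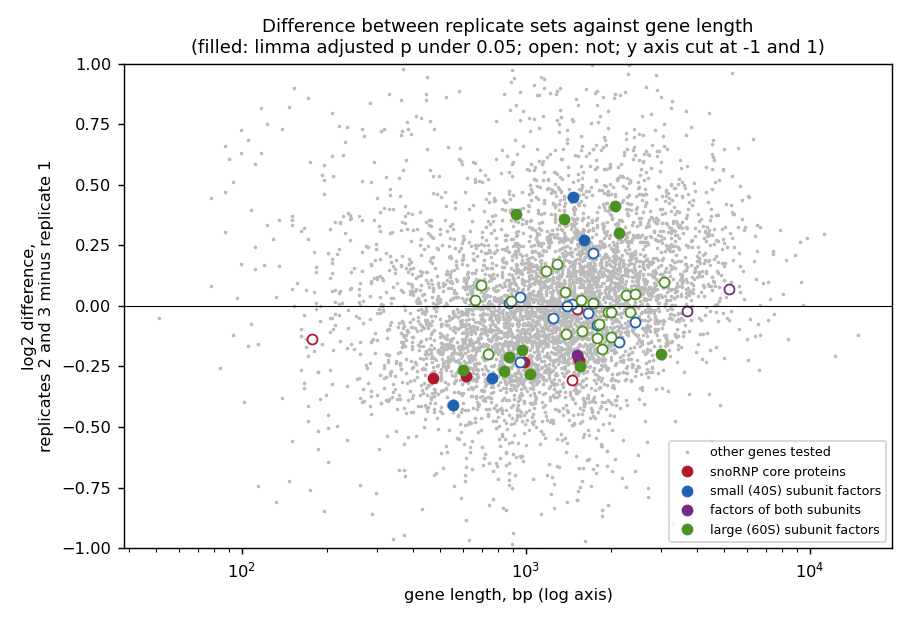
The log2 difference, replicates 2 and 3 minus replicate 1, against gene length in bp on a log axis, for the 57 members (coloured) and all other genes tested (grey). Filled points passed limma's adjusted threshold, other genes beyond a difference of 1 in either direction are not drawn, and of 11 members of at most 1200 bp that passed, 10 lie below 0 and MAK16 lies above.

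Other measures differed between the same sets of arrays. The spiked control RNA dap read 42.7 to 55.0 on replicates 2 and 3, against 2.02 on deletion 1 and 0.0959 on wild type 1. Of 5 control genes with probe sets at both ends, the ratio of 3′ to 5′ signal was lower on all arrays of replicates 2 and 3 for WBP1 and higher for RIP1, and overlapped for the other 3. Summed signals of 6 genes known to rise as growth slows (HSP12, CTT1, HXK1, CIT2, ADH2 and SPI1) were 7314 to 8072 on replicates 2 and 3 and 10694 to 11319 on replicate 1. Of the 6, CTT1, HXK1, CIT2 and SPI1 were called lower in replicates 2 and 3. The other 2 had differences of the opposite sign and were not called, HSP12 at 0.40 (SE 0.15) and ADH2 at 0.59 (SE 0.61), and no marker was at background. Of 7 probe sets for ribosomal RNA, 3 (the 18S 5′ set and the 25S middle and 3′ sets) were lower on every array of replicates 2 and 3, and the other 4 overlapped. The part of these measures in the result was not tested.

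The genotype difference of a member could also depend on the replicate set, an interaction. Replicate 1 holds a single array of each genotype, so a test of it has low precision. An absence of calls does not show that the genotype difference is the same in both sets. A test of that interaction called 0 of 57 members and 0% of all genes. At an unadjusted p under 0.05 it had 4 members, CBF5, RRP9, MAK16 and DIM1, while 6.63% of all genes reached that level. For CBF5 the deletion minus wild type difference was -0.50 in replicate 1, -0.12 in replicate 2 and 0.10 in replicate 3. For RRP9 the values were -0.43, -0.0076 and -0.036. MAK16 and DIM1, named after their values were seen, gave -0.31 and 0.24 in replicate 1 and between -0.19 and 0.079 in replicates 2 and 3.

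The rest of the pathway was read from 8 further lists, which hold 191 genes outside the 57. All were measured and 0 passed the genotype test over all genes tested, without or with the replicate block. Without the block RIA1 alone had an unadjusted p under 0.05, and with it 6 genes did, UTP7, RIA1, ECM1, TFC3, RPC25 and the polymerase I factor gene RRN11, the last named because it completes this count. Over all genes 13.0% reached that level with the block, and 0 of the 57 members. Every deletion array was higher in 3 of the 191 genes (RIA1, TFC3 and TFC1) and lower in 2 (ECM16 and RRP42), against 7.55% and 3.04% of all genes. Among UTP proteins and other processome factors 25 of 46 were lower in the deletion, with a median of -0.013. UTP7 differed by -0.15 (SE 0.087), the helicase gene ECM16 by -0.12 (SE 0.075) and the helicase gene HCA4 (DBP4) by 0.23 (SE 0.16). For late small subunit factors the median was -0.040 over 11 genes, with TSR3 at 0.11 (SE 0.11), the methyltransferase gene BUD23 at -0.059 (SE 0.094) and the kinase gene RIO1 at -0.044 (SE 0.073). Other large subunit assembly factors gave -0.011 over 40, with RRP14 at 0.12 (SE 0.087), DBP6 at -0.082 (SE 0.076) and SSF2 at -0.15 (SE 0.15). SSF2 is a close paralog of the member SSF1, and cross-hybridisation between their probe sets was not tested.

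RIA1, which encodes a cytoplasmic GTPase that releases TIF6 from the large subunit, read 758, 745 and 788 in the deletion, against 641, 661 and 666 in wild type. Every deletion array was higher, with a difference of 0.22 (SE 0.067, 95% interval 0.056 to 0.38), and the gene did not pass the threshold (limma adjusted p = 0.592). RIA1 belongs to the 14 export and cytoplasmic maturation factors, which had a median of -0.025. There YVH1 differed by -0.13 (SE 0.080) and ECM1 by 0.21 (SE 0.16).

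Genes of the nuclear exosome and RNase MRP, which trim and cut the precursor, had a median of -0.019 over 27 genes. RPP1, a protein subunit of RNase P and MRP, differed by -0.15 (SE 0.10), and the exosome ring genes RRP42 and RRP45 by -0.10 (SE 0.070) and -0.10 (SE 0.081). RNA polymerase I genes, whose products transcribe the large ribosomal RNA precursor, had a median of -0.016 over 18. RPC40, a subunit shared by polymerases I and III, read 2539, 2385 and 2429 in the deletion and 3364, 2576 and 2505 in wild type, with wild type 1 apart from the rest as for CBF5. RRN5 and RRN7, initiation factors, differed by -0.12 (SE 0.10) and 0.13 (SE 0.11).

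For RNA polymerase III and its factors, which make the 5S and transfer RNAs, the median was -0.022 over 19 genes. TFC3 and TFC1, subunits of its initiation factor TFIIIC, were higher on every deletion array, at 0.18 (SE 0.078) and 0.086 (SE 0.071), and the polymerase subunit gene RPC25 differed by -0.24 (SE 0.13). With the replicate block RPC25 had a difference of -0.24 (SE 0.055, unadjusted p = 0.00652) and a limma adjusted p = 0.173, with values of -0.24, -0.23 and -0.25 in replicates 1, 2 and 3. The list drawn up as regulators of the pathway had a median of -0.0079 over 17. STB3, which binds an element common before ribosome biogenesis genes and represses them, differed by 0.15 (SE 0.10) and RAP1 by 0.080 (SE 0.074). TYE7, on that list but with no role in this pathway shown here, differed by 0.16 (SE 0.16).

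The cytosolic ribosomal protein genes are the nearest comparison. Of 127, 111 were lower in the deletion, with a median of -0.041, and 0 passed the genotype test. Within replicates 1, 2 and 3 the medians were -0.093, -0.030 and -0.00065, with 115, 79 and 64 genes lower. Between replicate sets 68 were called lower in replicates 2 and 3 and 2 higher, with a median of -0.21, beside -0.23 for the snoRNP genes. Of all genes tested, 18.4% were called lower and 18.5% higher. Quantile normalization, which makes the distribution of signals the same on every array, left 8 ribosomal protein genes called lower and 6 higher, with a median of -0.025, and 71 of 127 lower between genotypes. Of all 5402 genes it left 1005 called lower and 944 higher between replicate sets. For processome factors of the UTP list the counts were 5 lower and 18 higher of 46, with a median of 0.13, and after quantile normalization 4 lower and 18 higher. The lists were not tested against each other. Their gene lengths differ, with medians of 771 bp for ribosomal protein genes, 984 bp for snoRNP genes and 1752 bp for the UTP list.

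By position in the RefSeq gene table, the 57 members lie on 14 chromosomes, and 2 pairs of members are direct neighbours. RPF1 and GAR1 converge, and PWP1 lies in tandem with NOP56. Another 7 members each have a direct neighbour from the 8 lists. RPF1 and GAR1 differed by -0.052 and -0.023 between genotypes, and by 0.020 and -0.29 between replicate sets. SSF1 shares its upstream region with the helicase gene RRP3, and these differed by 0.36 and -0.050 between replicate sets.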

How the data were processed

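Total RNA of 6 yeast cultures, labelled as cRNA, was read on Affymetrix arrays, 1 per culture. The deposited values are intensities, 1 MAS5 signal per probe set on a linear scale, per the submitters' processing notes. Which version of MAS5 and which scaling target were used is not given in the sources used here. Of 10928 probe sets, 5498 were annotated to a single S. cerevisiae gene, and the brightest stood for each of the 47 genes with several. Genes were tested where their mean log2 signal exceeded the 95th percentile of 1746 Schizosaccharomyces pombe probe sets on the array (signal 8.32). Log2 signals of these genes were fitted with limma 3.58.1 in R 4.3.3 (lmFit, eBayes, Benjamini-Hochberg over all genes tested), without offset or further normalization.

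Genotype was fitted without a block. Other fits tested replicates 2 and 3 against replicate 1 and the interaction. The labels call the samples biological, but cultures grown together are not stated, so p-values measure the spread between these arrays. Deviations of same-numbered arrays from their group means correlated at 0.768, 0.454 and 0.415 over all genes. Replicates 2 and 3 also correlated across numbers, at 0.535 and 0.471, both above their same-numbered values. The labels name no pairing, and the numbers were used as pairs only in the replicate block and the differences within same-numbered arrays. Named genes were, per role, those with the smallest genotype p, the largest replicate-set difference and the highest signal, plus up to 10 of those called in any fit, and 3 per further list by genotype p. The members and lists were chosen with earlier results of these data known. The fits were tested on simulated data with independent noise on each array, which lack the replicate structure shared by the real arrays. Alternatives changed the scaling, the filter, the offset (32), the variance model, the probe set rule and the arrays. The number of arrays limits the precision. Promoter sequences were not analysed here.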

Additional observations from a re-analysis of the deposited data

Results flagged for a closer look

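Among control probe sets outside the comparisons, the probe set for 5.8S ribosomal RNA stood out because its signal was higher on every deletion array than on any wild-type array. It read 1280.3, 1396 and 1839.8 on deletion arrays 1, 2 and 3, against 1006, 1015 and 892 on the wild-type arrays, a ratio of geometric means of 1.53. An exact permutation test gave p = 0.1 (2-sided, n = 3 each), the smallest that 3 arrays against 3 allow. Any probe set picked for lack of overlap has this p, so it adds no support here. Of all genes tested, 7.55% were higher on every deletion array. The other 6 of the 7 ribosomal RNA control probe sets overlapped between genotypes, with ratios from 0.444 to 1.32. The lowest ratio was that of the 25S 5′ probe set, which read 66.9, 11.2 and 43.7 on deletion arrays 1, 2 and 3, against 80.6, 79.2 and 58.5 on the wild-type arrays (exact permutation p = 0.2). On deletion array 1 the 5′, middle and 3′ probe sets for 18S ribosomal RNA read 506, 69.2 and 12.4. Whether the signals of these control probe sets follow the amount of ribosomal RNA was not tested.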

How the results depend on the processing

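Under every alternative run, 0 of 57 members were called between genotypes. Limits are that 3 arrays a group give exact tests no p under 0.1, that the scaling target is unknown, and that the sets of replicates differ in ways the labels do not explain. The number of all genes called between genotypes was 2, and it was 6 with the replicate block (3 higher), 34 with the form of sample code as a term (29 higher, 5 lower), 202 with array weights (175 higher, 27 lower), whose estimation stopped before it converged, and 1, a lower one, with each of quantile normalization, an offset of 32, a mean signal of at least 100 and an intensity trend. The replicate block changed no call among the members. Median centring took the members lower in the deletion to 50 and the median difference to -0.059 over the members, -0.028 over small subunit factors and -0.060 over large subunit factors, while it moved the median of all genes to -0.035. Single-gene differences were followed only for the members picked by the naming rule above, so sign changes of other members are not listed. In replicates 2 and 3 alone the genotype difference changed sign for BFR2 (-0.046), EMG1 (-0.014), ERB1 (-0.0016), IMP3 (-0.011) and NSR1 (0.028). After quantile normalization the genotype difference changed sign for BFR2 (-0.0026), GAR1 (0.00021), NMD3 (0.0065) and NSR1 (0.0062). After median centring the genotype difference changed sign for BFR2 (-0.024), DBP10 (-0.0087), EMG1 (-0.011), ERB1 (-0.029), IMP3 (-0.033), NOG2 (-0.024), NOP4 (-0.011) and SOF1 (-0.022). With array weights the genotype difference changed sign for BFR2 (-0.027), ERB1 (-0.0038), IMP3 (-0.089), NOG2 (-0.023) and NSR1 (0.016). Between replicate sets NUG1 changed sign after median centring (-0.0035). The cause of these changes was not tested.

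Leaving out 1 array at a time gave 1 to 2 genes called between genotypes, all lower, and 26 to 41 members lower. The median difference ran from -0.036 to 0.0055 over the members, -0.12 to 0.046 over snoRNP genes, -0.026 to 0.025 over small subunit factors and -0.035 to 0.0064 over large subunit factors. Genotype differences that changed sign ran, by gene, over -0.11 to 0.078 for BFR2, -0.12 to 0.025 for BRX1, -0.29 to 0.011 for CBF5, -0.032 to 0.10 for DBP10, -0.088 to 0.027 for DBP3, -0.094 to 0.11 for EMG1, -0.014 to 0.019 for ERB1, -0.12 to 0.068 for GAR1, -0.12 to 0.019 for HAS1, -0.14 to 0.13 for IMP3, -0.15 to 0.054 for NHP2, -0.094 to 0.072 for NMD3, -0.059 to 0.14 for NOC2, -0.036 to 0.049 for NOG2, -0.13 to 0.039 for NOP1, -0.13 to 0.0035 for NOP2, -0.12 to 0.16 for NOP4, -0.10 to 0.046 for NOP58, -0.055 to 0.016 for NSR1, -0.14 to 0.044 for RPF2, -0.15 to 0.031 for RRP1, -0.14 to 0.16 for SOF1 and -0.074 to 0.0045 for YTM1. Between replicate sets the range was 523 to 1935 genes called (304 to 1006 higher, 219 to 929 lower), 3 to 17 members called, and a member median of -0.070 to -0.026, with sign changes over -0.14 to 0.036 for NSR1, -0.050 to 0.10 for NUG1 and -0.050 to 0.013 for RRP12. These single-gene ranges also cover only the members picked by the naming rule. The interaction was not run with arrays left out.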
